A study of Mus musculus with 5 samples.

Results

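Proteins that enter the endoplasmic reticulum are folded there by chaperones, joined by disulphide bonds and, where folding fails, sent back to the cytosol for degradation. When unfolded proteins accumulate, 3 sensors in the membrane of the compartment switch on the unfolded protein response, through the transcription factors ATF6, XBP1 and ATF4, and genes for chaperones, disulphide enzymes and degradation factors are induced. Fibroblasts secrete large amounts of collagen and other matrix proteins and depend on this machinery. The 10 genes described here are Hspa5, Hsp90b1 and Dnajb11 (chaperones), Pdia4, Pdia6 and Ero1a (disulphide bond formation), Manf and Creld2 (small luminal and secreted proteins of the response), Herpud1 (degradation) and Ddit3 (a transcription factor of the response). They were chosen by symbol, from probes that the platform annotation assigns to exactly 1 gene, after their measured ratios in both preparations of this study were known. They are 10 of 9669 such genes and are read by 12 of 20205 probes, with 2 probes each for Pdia4 and Manf. All values of theirs below are therefore a description of the difference between the cell lines and between the preparations, without a test of either.

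RNA of NIH3T3 cells that constitutively overexpress human ERBB2 (HER-2/NEU), a receptor tyrosine kinase, from a cytomegalovirus promoter was hybridised together with RNA of the parental, untransfected NIH3T3 line on 5 two-colour arrays. NIH3T3 is an immortalised mouse embryo fibroblast line, and both lines were kept in the same serum-containing medium. By their labels, A1, A2 and A3 belong to preparation A and B1 and B2 to preparation B, and what a preparation was is left unsaid. Erbb2-transfected cells were labelled with Cy3 on A1, A2 and B1 and with Cy5 on A3 and B2. The sources used here do not say whether the transfected line was 1 clone or a pool, and no probe used here was named for Erbb2 alone, so the receptor's own ratio was not available as a check. Every value is a log2 ratio of Erbb2-transfected over NIH3T3 cells, so that -1 stands for a halved ratio. This direction is likely rather than settled, since it takes Cy5 as the numerator of the deposited ratios. Under the opposite reading every sign below turns while sizes and differences between preparations keep their size.

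The arrays differed in how many probes carried a value and in how widely the ratios spread. Values were present for 5368 to 11348 probes on the arrays of preparation A, against 17463 on B1 and 13109 on B2. The SD of all log2 ratios was 0.720 to 0.846 on the arrays of A, against 0.532 on B1 and 0.698 on B2. Of the 11 fibroblast markers listed, 9 had a value, and 6 of these could be tested. Of these, Col1a1 and Col1a2, which encode type I collagen, were lower in Erbb2-transfected cells at an adjusted p of 5.80e-07 each (limma), and 4 did not pass. At an unadjusted p under 0.05 (limma), 3 of the 6 fibroblast markers were lower and 1 was higher. Markers of epithelium, endothelium, leukocytes and muscle gave 0 calls among 3 testable genes, with 0 at an unadjusted p under 0.05 (limma). These are ratios of a pair of lines and show no level of a marker in either.

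The promoters of these genes are shown first, because textbook accounts of the response rest on short sequence elements in them. The ER stress response element (ERSE), bound by NF-Y together with ATF6 or XBP1, was searched as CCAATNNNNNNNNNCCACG, and the shorter ERSE-II as ATTGGNCCACG. The core of an element bound by XBP1 was searched as TGACGTGG and the composite C/EBP-ATF element, which ATF4 can bind, as TTGCATCA. Both strands were read in windows from 250 bases before to 50 bases after the annotated start (RefSeq, GRCm38.p6), counting the start as +1 with no position 0. The first 3 motifs share the letters CCACG on one strand or the other, but no 2 matches in these windows overlapped. Windows were found for 9 of the 10 genes, and Manf had none in the table used. In the stretches below, written 5′ to 3′ on the strand of the gene, capitals mark ERSE or ERSE-II matches.
Pdia6: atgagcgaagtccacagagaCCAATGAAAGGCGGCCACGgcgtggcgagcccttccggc
Dnajb11: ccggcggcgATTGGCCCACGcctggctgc
Hsp90b1: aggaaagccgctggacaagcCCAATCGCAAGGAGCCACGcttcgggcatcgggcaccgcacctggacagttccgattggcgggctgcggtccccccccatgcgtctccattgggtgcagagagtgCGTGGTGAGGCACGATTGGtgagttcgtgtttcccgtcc
Hspa5: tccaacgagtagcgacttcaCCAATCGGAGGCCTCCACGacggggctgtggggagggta
Creld2: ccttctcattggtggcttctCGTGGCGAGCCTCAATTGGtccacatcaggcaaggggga
Herpud1: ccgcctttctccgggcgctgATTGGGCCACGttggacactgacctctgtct
They lie at chr12:17266471-17266529 (plus strand, Pdia6), chr16:22857843-22857871 (plus strand, Dnajb11), chr10:86705513-86705676 (minus strand, Hsp90b1), chr2:34772005-34772063 (plus strand, Hspa5), chr15:88819500-88819558 (plus strand, Creld2) and chr8:94386357-94386407 (plus strand, Herpud1). The annotated gene spans in the same build are chr12:17266589-17284785 (Pdia6), chr16:22857845-22879634 (Dnajb11), chr10:86690841-86705444 (Hsp90b1), chr2:34772090-34776529 (Hspa5), chr15:88819646-88826681 (Creld2) and chr8:94386429-94395371 (Herpud1). Those of the remaining genes are chr6:47796141-47813512 (Pdia4), chr14:45283087-45318572 (Ero1a), chr9:106888753-106891938 (Manf) and chr10:127290793-127296291 (Ddit3). The spotted cDNA probes read transcripts of these genes, and where on a transcript each probe lies was not examined.

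ERSE was present in 4 of the 9 windows, those of Pdia6, Hsp90b1, Hspa5 and Creld2, against 37 of 27025 genes, or 0.137%, over all mouse promoter windows of this length. ERSE-II was present in Dnajb11 and Herpud1, against 12 of 27025 genes, or 0.0444%. The matches of Pdia6, Hspa5 and Herpud1 lay at -98 to -80, at -65 to -47 and at -52 to -42, whereas that of Dnajb11 lay after it, from +8 to +18. Hsp90b1 had 2 matches, at -212 to -194 and, on the other strand, at -107 to -89. In Creld2 the match was also on the other strand, at -126 to -108. The C/EBP-ATF letters were present in Herpud1 alone of the 9, at -112 to -105, against 1.03% of all genes, and the XBP1 core in 0 of the 9, against 0.714%. In the windows of Pdia4, Ero1a and Ddit3 none of the 4 motifs matched. A match is a run of letters and not a shown binding site, and a window without one says nothing of sites elsewhere. These motifs were searched because textbook accounts of the response rest on such elements, so nothing is read from their shares here.

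**Figure D1:**
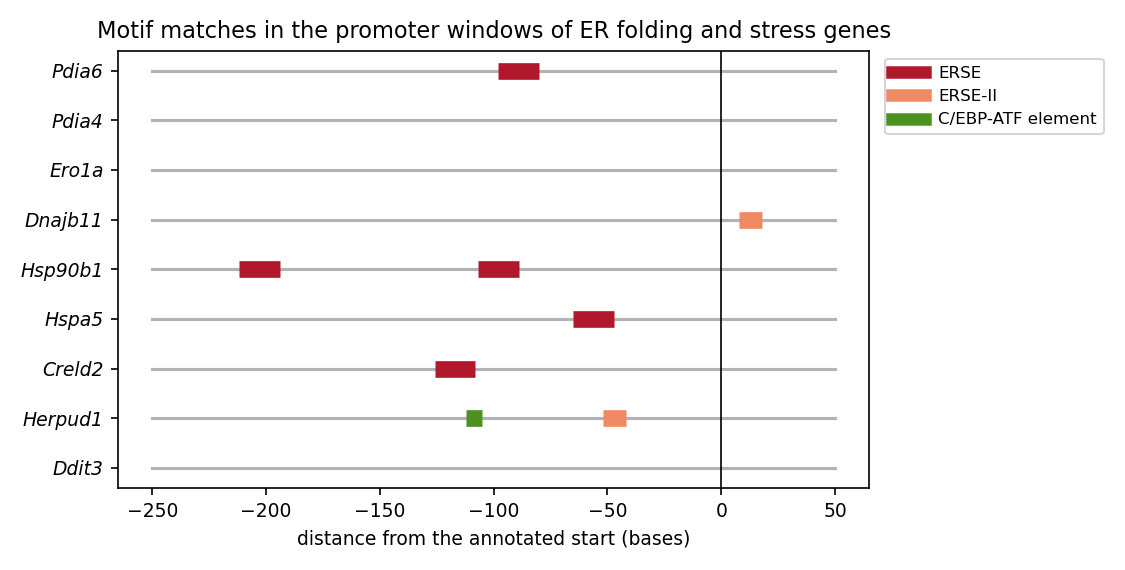
Matches to ERSE, ERSE-II and the C/EBP-ATF element in the promoter windows of 9 ER folding and stress genes, by distance in bases from the annotated start (vertical line); grey lines are the windows from 250 bases before to 50 after. Matches lie in 6 of the 9 windows. Hsp90b1 has 2 ERSE matches, and Herpud1 has both an ERSE-II and a C/EBP-ATF match.

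Hspa5 (BiP) is the Hsp70 chaperone of the compartment and holds the sensors of the unfolded protein response inactive until unfolded protein draws it away. Its ratio was -1.93 (A1) and -2.21 (A2) in preparation A, against -0.32 (B1) in B, and it had no value on A3 or B2. Both arrays of preparation A thus lay well below the single array of B, and since all 3 carried Erbb2-transfected cells in Cy3, the averages of -2.07 in A and -0.32 in B hold the same dye orientation. These correspond to 4.19-fold lower signal in Erbb2-transfected than in NIH3T3 cells in preparation A and 1.25-fold lower signal in B. In cultures measured as a whole, a lower ratio from fewer cells expressing a gene and one from less RNA per cell cannot be told apart.

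Hsp90b1 (GRP94), the Hsp90 chaperone of the compartment, had -1.25 (A1), -1.13 (A2) and -1.16 (A3) in preparation A, against 0.56 (B1) and 0.39 (B2) in B. It was the only one of the 10 genes above 0 on every array of B and below 0 on every array of A. The signal was 2.26-fold lower in Erbb2-transfected than in NIH3T3 cells in preparation A, whereas in B the ratio was 1.39. The arrays of a preparation lay close together, with SDs of 0.065 in A (n = 3) and 0.12 in B (n = 2), against a difference of -1.65 between the preparations.

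Dnajb11 (ERdj3), a J-domain cochaperone that hands unfolded chains to Hspa5, had -0.67 (A2) and -0.71 (A3) in preparation A, without a value on A1, against -0.60 (B1) and -1.09 (B2) in B. The preparations overlapped, and Dnajb11 was the only one of the 10 genes with a higher mean in A than in B, at -0.69 against -0.85. Although it works with Hspa5, it was thus lower by similar amounts in both preparations, 1.61-fold in A and 1.80-fold in B.

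Pdia6 (P5) is a protein disulphide isomerase, which forms and rearranges disulphide bonds in secreted proteins. It had -2.96 (A1), -2.39 (A2) and -3.12 (A3) in preparation A, against -1.99 (B1) and -1.71 (B2) in B, so that every array was far below 0 and every array of A below every array of B. In preparation A its signal was 7.44-fold lower in Erbb2-transfected cells and in B 3.60-fold lower, the lowest ratio of the 10 genes in B. Ero1a, the oxidase that passes electrons from protein disulphide isomerases to oxygen, had -2.22 (A1), -1.84 (A2) and -2.60 (A3) in A, against -1.15 (B1) and -1.31 (B2) in B. Like Pdia6 it was below -1 on all 5 arrays, with 4.97-fold lower signal in A and 2.34-fold lower signal in B.

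Pdia4 (ERp72), another disulphide isomerase, was read by 2 probes that gave different pictures. The first had -1.94 (A1), -1.90 (A2) and -2.11 (A3) in preparation A, against -0.31 (B2) in B, without a value on B1. The second had -1.12 (A1), -0.87 (A2) and -1.80 (A3) in preparation A, against 0.10 (B1) and -1.35 (B2) in B. By the second probe the preparations overlapped, because B2 lay below A1 and A2, and on B2 the probes stood far apart. Averaged over probes the gene had -1.53, -1.38 and -1.96 in A, against 0.10 and -0.83 in B. Either probe's value on B2 was below the 0.10 of B1, which came from the second probe alone, so the size of the gap between B1 and B2 depends on the probe.

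Manf, a small luminal protein that is also secreted under ER stress, was read by 2 probes with values on all arrays. The first had -1.66 (A1), -1.10 (A2) and -1.46 (A3) in preparation A, against 0.39 (B1) and -0.37 (B2) in B. The second had -1.64 (A1), -0.73 (A2) and -1.51 (A3) in A, against 0.42 (B1) and 0.22 (B2) in B. By either probe every array of A lay below every array of B, while the sign on B2 differed between probes. Averaged over probes, signal was 2.61-fold lower in Erbb2-transfected cells in A, and in B the ratio was 1.12.

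Creld2, a protein with EGF-like domains that is induced with the chaperones, had -2.85 (A1) and -2.70 (A2) in preparation A, without a value on A3, against -1.43 (B1) and -0.90 (B2) in B. It was below 0 on every array with a value and lower in A, with 6.84-fold lower signal in A and 2.24-fold lower signal in B. Herpud1, a membrane protein of the ubiquitin ligase complex that removes misfolded proteins, had -2.35 (A1) and -1.96 (A2) in A, against -0.81 (B1) in B, and was not measured on A3 or B2. Like Hspa5 it was thus compared in a single dye orientation, with 4.44-fold lower signal in A and 1.76-fold lower signal in B.

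Ddit3 (CHOP), a transcription factor induced by ATF4 that promotes cell death under lasting stress, had the largest difference between the preparations. Its ratio was -3.26 (A1) and -3.08 (A2) in preparation A, without a value on A3, against 0.08 (B1) and -0.33 (B2) in B. In preparation A its mean linear ratio was 0.111, the lowest of the 10 genes there, and in B it was 0.917. The ratio in A was 8.25-fold lower than in B. Both values of A carried the transfected line in Cy3, and against B1, which did so too, the difference was -3.25.

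**Figure D2:**
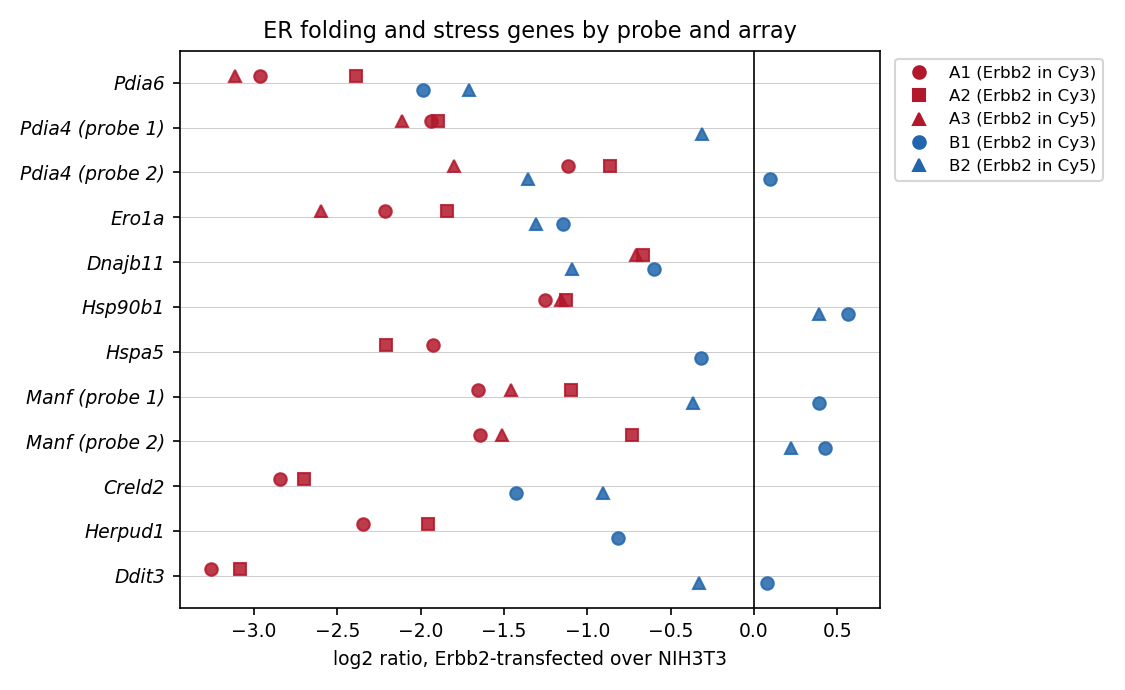
Log2 ratio of Erbb2-transfected over NIH3T3 cells (horizontal axis) for the 12 probes of the 10 ER folding and stress genes, with 1 symbol per array; red is preparation A and blue is preparation B, and triangles are arrays with Erbb2-transfected cells in Cy5. Hsp90b1 has -1.25 to -1.13 in A against 0.39 and 0.56 in B, while the symbols of Dnajb11 and of the second Pdia4 probe overlap between preparations.

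Over the 10 genes, the median log2 ratio was -2.11 in preparation A, against -0.59 in B, while over 7137 features with values on at least 2 arrays of A and 1 of B the medians were -0.01 and -0.003. By array the medians were -2.22 on A1 (9 genes), -1.90 on A2 (10 genes) and -1.72 on A3 (6 genes), against -0.46 on B1 (10 genes) and -0.87 on B2 (8 genes). Signal was at least 2-fold lower in Erbb2-transfected cells for 9 of the 10 genes in preparation A and for 3 in B, which were Pdia6, Ero1a and Creld2, against 3.99% of the 7137 features in A and 3.17% in B. Of the 10 genes, 6 lay below 0 wherever they were measured, namely Pdia6, Ero1a, Dnajb11, Hspa5, Creld2 and Herpud1, against 13.5% of the 7137 features. Going from the lowest ratio in A, the order was Ddit3, Pdia6, Creld2, Ero1a, Herpud1, Hspa5, Pdia4, Manf, Hsp90b1 and Dnajb11. Neighbours in that order lay within the larger of their SDs over arrays, such as Pdia6 at -2.90 (SD 0.38, n = 3) and Creld2 at -2.77 (SD 0.10, n = 2), apart from Creld2 and Ero1a, Hspa5 and Pdia4, and Hsp90b1 and Dnajb11. In B the order began with Pdia6, Ero1a and Creld2 and ended with Ddit3, Manf and Hsp90b1, so that Ddit3 stood lowest in A and was followed in B by Manf and Hsp90b1 alone.

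Every array of preparation A lay below every array of B for 9 of the 10 genes, all but Dnajb11, whereas this held for 15.9% of the 7137 features. Among features with values on all 5 arrays it held for 5 of 5 of these genes (Pdia6, Pdia4, Ero1a, Hsp90b1 and Manf) and for 10.4% of all. For Pdia4 both counts rest on the mean over its probes, since by its only probe with values on all 5 arrays the preparations overlapped. The mean in A was lower than that in B by 1 or more on the log2 scale for 9 of the 10 genes, against 2.79% of the 7137 features. For Pdia4 this too rests on the mean over its probes. Its probe with values on all 5 arrays had means of -1.40 in A and -0.63 in B, a gap under 1. The genes were chosen with these ratios known, so the counts describe the choice and nothing is read from them. The median difference was -1.45, and single differences ran from -3.05 (Ddit3) to -1.05 (Pdia6) and, for Dnajb11, 0.16. Counts within single dye orientations follow, without a share over all features. These values too were known when the genes were chosen, so the counts describe the choice. A role of the dye in these genes was not tested. With Erbb2-transfected cells in Cy3, the mean of A1 and A2 lay below B1 for 10 of 10 genes, by 1 or more for 7, with differences from -3.25 (Ddit3) to -0.06 (Dnajb11). With Erbb2-transfected cells in Cy5, A3 lay below B2 for Pdia6, Pdia4, Ero1a, Hsp90b1 and Manf and above it for Dnajb11.

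The narrower ratios of B1 and the wider ones of A1 move with this difference. After the arrays were scaled to equal median absolute deviation, 9 of the 10 genes were lower in A, 6 of them by 1 or more, with a median difference of -1.25. After quantile normalization the counts were also 9 and 6, with a median of -1.15. Without B1, 7 of the 8 genes that kept a value in B were lower in A, with a median of -1.25, and without B2 it was 10 of 10, with a median of -1.54. Restricted to probes with values in each orientation of each preparation, 6 genes kept a value, of which 5 were lower in A and 4 by 1 or more. No share over all features was worked out under these settings, so the counts have no base to be read against. Since the genes were chosen with their ratios in both preparations known, these counts describe them and are no support for the difference. Whether the spread of the arrays accounts for it was not tested.

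**Figure D3:**
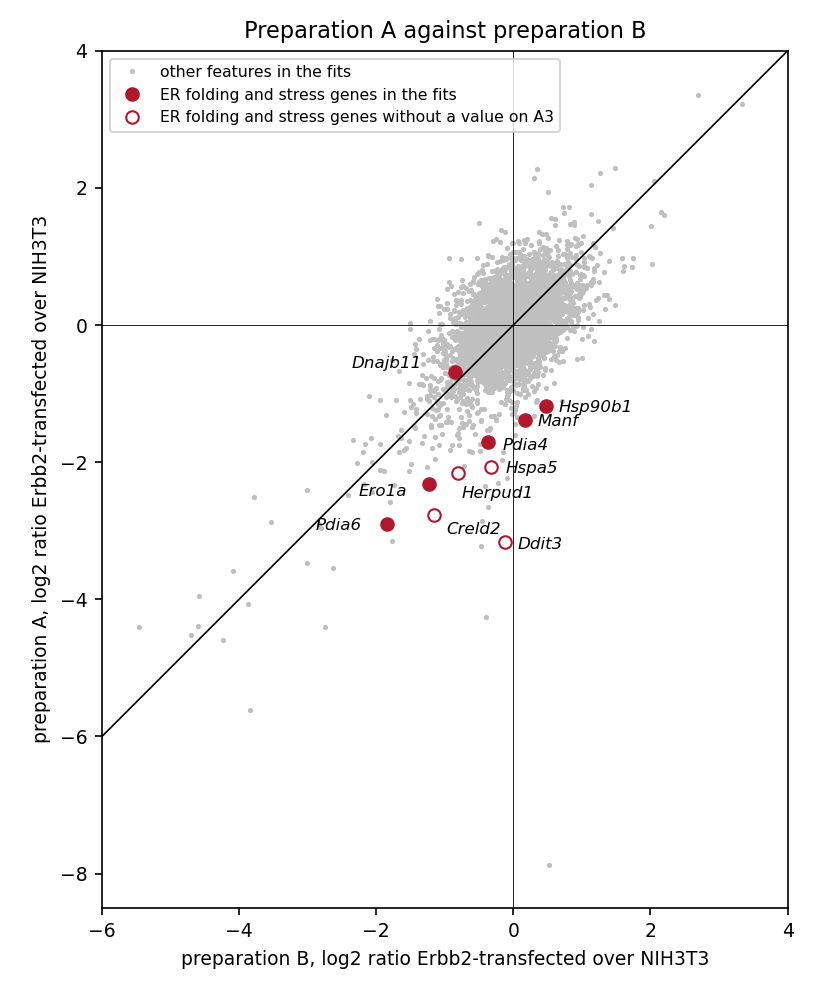
Mean log2 ratio of Erbb2-transfected over NIH3T3 cells in preparation A (vertical axis) against preparation B (horizontal axis) for 4892 features (grey), with the 10 ER folding and stress genes in red; the diagonal marks equal ratios. Of these genes, 9 lie below the diagonal and Dnajb11 lies above it.

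Across all features, limma called 222 of 4892, or 4.54%, lower and 110, or 2.25%, higher in Erbb2-transfected cells at an adjusted p under 0.05. Of the 10 genes 6 could enter this fit, since Hspa5, Creld2, Herpud1 and Ddit3 lacked a value on A3. Of the 6, Pdia6, Ero1a and Dnajb11 were among the features called lower and Pdia4, Hsp90b1 and Manf were not, a split on which nothing is read because the ratios were known when the genes were chosen. The total of 332 features fell to 219, 211 and 198 without A3, B1 and B2. Between the preparations, 1 of 4892 features, or 0.0204%, was called by limma, an unnamed probe, and 330 features had an unadjusted p under 0.05. Without A1 or without A2, 25 features were called, and without B2 there were 3. The 10 genes were chosen on this contrast, so their place among these calls is not read.

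The dye effect, the part of a ratio that follows the dye and not the cell line, was estimated in the same fit on 5 arrays. Limma called it in 29 of 4892 features, or 0.593%, and 645 had an unadjusted p under 0.05. This total depended on single arrays, with 256 without A1, 56 without A2, 3 without A3, 0 without B1 and 6 without B2. The estimates for the 6 genes in the fit, Cy5 over Cy3, lay between -0.34 ± 0.19 (SE) for Pdia4 and -0.03 ± 0.18 (SE) for Hsp90b1. They come from the array values that were known when the genes were chosen, so they are a description and no test of them is given. Among the 4 genes outside the fit, Creld2 and Ddit3 were measured in both orientations in preparation B alone, and Hspa5 and Herpud1 in one orientation alone.

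The remaining machinery of the compartment was described with 8 lists of 232 genes named for their function, without these 10. Of these, 158 had a value and 76 could be tested between the cell lines. Limma called 7 of the 76 lower and 0 higher in Erbb2-transfected cells, against 4.54% of all features called lower and 2.25% called higher. At an unadjusted p under 0.05 (limma), 20 of the 76 were lower and 1 higher, against 640 lower and 478 higher of all 4892 features. The median log2 ratio of the 76 was -0.20, against -0.02 over all 4892 features. Without B2, 2 were called lower, Rcn3 and Serpinh1.

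Among the chaperones and cochaperones 2 of 9 tested genes fell and 0 rose. Serpinh1 (HSP47), the chaperone of collagen, had -1.58 ± 0.08 (SD of 2 preparation means, limma adjusted p = 7.93e-04), and Dnajc10 (ERdj5), a reductase that works with Hspa5, had -0.88 ± 0.06 (limma adjusted p = 0.0257). In contrast to Hsp90b1 or Hspa5, the fall of Serpinh1 was as large in B as in A, with -1.78 (A1), -0.67 (A2) and -1.83 (A3) in preparation A, against -1.36 (B1) and -1.92 (B2) in B. Of 7 tested disulphide and prolyl isomerases and of 9 tested genes of ER-associated degradation 0 passed, with 3 and 0 lower at an unadjusted p under 0.05 (limma) and none higher. Prdx4, the peroxiredoxin of the compartment, and Txndc12, a thioredoxin-like protein, had -0.54 and -0.50 and did not pass (limma adjusted p = 0.17 each). Nploc4 and Ube2g2, which act in extraction and ubiquitination, had 0.43 and 0.27 and did not pass either.

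In each of 5 further lists 1 gene fell and 0 rose. Rpn1, a subunit of the oligosaccharyltransferase, had -0.91 ± 0.21 among 10 tested genes of N-glycosylation (limma adjusted p = 0.0235). Ssr4, of the complex beside the translocon, had -1.27 ± 0.03 among 12 (limma adjusted p = 0.00369). Both were lower on B2, at -1.84 and -2.03, than on B1, at -0.28 and -0.48, so that single arrays spread more widely than the preparation means. Tmbim6, a membrane protein that opposes cell death, had -0.80 ± 0.02 among 5 tested sensors and effectors of the unfolded protein response (limma adjusted p = 0.0379), and Tmed10, a cargo receptor, had -0.93 ± 0.07 among 18 genes of transport (limma adjusted p = 0.0198). Rcn3, a calcium-binding protein, had -1.16 ± 0.36 among 6 genes of calcium handling (limma adjusted p = 0.00961). Without A3, B1 or B2 some of these calls were lost: Dnajc10 and Tmbim6 without each of the 3, Rpn1 and Tmed10 without A3 and without B2, and Ssr4 without B2.

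Between the preparations these lists did not move as a block. Their median difference, A minus B, was -0.02 over 102 genes with values on at least 2 arrays of A and 1 of B. Over all 7137 features it was -0.002. Over the 10 genes it was -1.45, but those were chosen with these values known. By list the medians ran from -0.44 (sensors and effectors, 7 genes) and -0.21 (degradation, 12 genes) to 0.15 (translocon, 17 genes). Every array of A lay below every array of B in 20 of the 102, against 15.9% of all features, and 3 differed by 1 or more, against 2.79%. These 3 were Calr, Trappc3 and Dnajc3, named after their values were seen. Calr (calreticulin), the lectin chaperone, had -2.69 (A1) and -2.37 (A2) in preparation A, against -1.06 (B1) and -0.20 (B2) in B. Canx (calnexin), its membrane-bound relative, had -0.23, 0.09 and -0.56 on the arrays of A, against -0.15 and -0.16 in B, and did not pass. Of the 76 tested genes 0 were called between the preparations by limma, and 1, Trappc3, had an unadjusted p under 0.05.

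**Figure D4:**
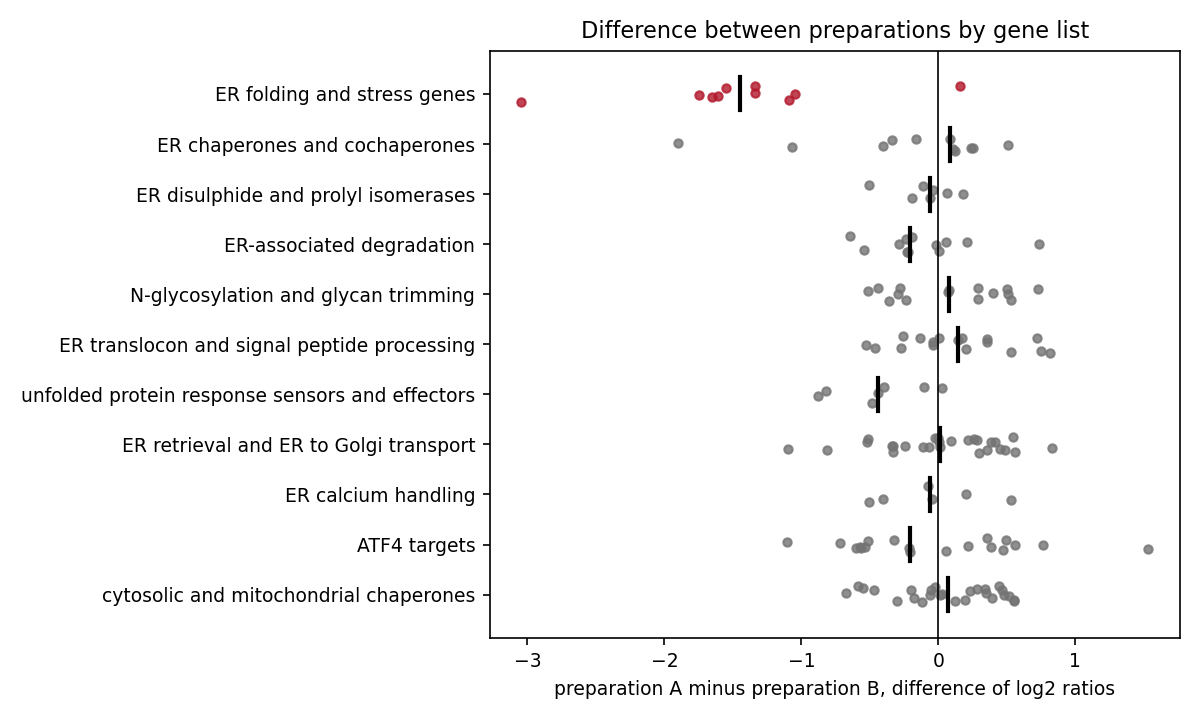
Difference of log2 ratios, preparation A minus preparation B (horizontal axis), for each gene with values on at least 2 arrays of A and 1 of B, by list, with the median as a black bar. The 10 ER folding and stress genes, which were chosen with these values known, have a median of -1.45, while the 8 other lists of the compartment have medians from -0.44 to 0.15.

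Among the sensors and effectors themselves, named after their values were seen, Atf4 had 0.19 (A1), 0.25 (A2) and 0.30 (A3) in preparation A, against 0.46 (B1) and 0.26 (B2) in B, and did not pass (limma adjusted p = 0.404). Its ratio was thus slightly above 0 on all 5 arrays, whereas its target Ddit3 was far below 0 in A. Ppp1r15a (GADD34), which reverses the block of translation, had -0.99, -0.48 and -1.21 in A, against -0.32 and 0.14 in B. Xbp1 was measured in preparation B alone, at 0.45 on B1 and 4.29 on B2, values that lie far apart. Of 12 tested ATF4 targets, 1 fell and 0 rose. That gene was Ddit4, an inhibitor of mTOR signalling, with -1.46 ± 0.23 (SD of 2 preparation means, limma adjusted p = 0.0018). It had -1.74 (A2) and -1.51 (A3) in preparation A, without a value on A1, against -0.96 (B1) and -1.64 (B2) in B, so that the preparations overlapped. The 19 ATF4 targets with enough arrays had a median difference between preparations of -0.21. Trib3, a pseudokinase induced by Ddit3 and ATF4 and also named after its values were seen, had -1.07, -0.51 and -1.46 in A, against 0.04 and -0.08 in B, without a call between preparations (limma adjusted p = 0.644). Other targets, chosen likewise, went the opposite way: Asns, the asparagine synthetase gene, had 0.77 (A1), 0.67 (A2) and 0.58 (A3) in A, against -0.88 (B2) in B, and Slc3a2, a subunit of amino acid transporters, had 0.69 (A2) and 0.25 (A3) in A, against -0.29 (B1) in B. Chaperones of the cytosol and mitochondria gave 1 lower call and 0 higher calls among 17, that of Stip1, a cochaperone, with -0.76 ± 0.02 (limma adjusted p = 0.0483). Without A1, A3 or B2 this call was lost, with limma adjusted p of 0.0522, 0.648 and 0.427. Their median difference between preparations was 0.07 over 26 genes.

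Apart from the 6 promoters printed above, 43 mouse genes had ERSE or ERSE-II in their window, of which 13 had a value and 8 could be tested. Limma called 0 of the 8 between the cell lines, with 0 at an unadjusted p under 0.05, and 0 between the preparations, with 0 at an unadjusted p under 0.05. Their median difference between preparations was -0.34 over 10 genes. Every array of A lay below every array of B in 4 of the 10, against 15.9% of all features, and 2 were lower by 1 or more, against 2.79%. These 2 were Calr and Dnajc3, an inhibitor of the kinase PERK, which had -0.60 (A1) and -0.42 (A2) in preparation A, against -0.07 (B1) and 1.19 (B2) in B. Of the 9 chosen genes with a window, the 6 with a match had differences of -1.05 (Pdia6), 0.16 (Dnajb11), -1.65 (Hsp90b1), -1.75 (Hspa5), -1.61 (Creld2) and -1.34 (Herpud1). The 3 without a match had -1.34 (Pdia4), -1.09 (Ero1a) and -3.05 (Ddit3), and since the genes were chosen with these values known, nothing is read from them.

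The genes whose profile over the 5 arrays was nearest to the median profile of the 10, among 2002 other genes measured on all 5, were Tspan31, Aqp1, Tulp4, Aldh3a1, Isg20 and Col6a1. Their root mean square distance was 0.287 to 0.391 on the log2 scale. Tspan31, a tetraspanin, had -2.49 (A1), -1.32 (A2) and -1.78 (A3) in preparation A, against -0.49 (B1) and -0.80 (B2) in B. Col6a1, a chain of type VI collagen, had -2.01 (A1), -1.72 (A2) and -1.83 (A3) in A, against -0.24 (B1) and -0.07 (B2) in B. None of the 6 is on the lists of the compartment used here.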

How the data were processed

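Each array measured RNA of Erbb2-transfected against NIH3T3 cells in different dyes. Per the labels, slides were scanned and read with GenePix Pro 3.0, background was subtracted from mean intensities, and ratios were scaled to a median of 1. No source used here says why values are missing. The files hold deposited log2 ratios: on A2 11.9% equalled, on base 2, the quotient of 2 whole numbers of at most 60, within 2e-06, relative to the array's most frequent value, against 0.150% after a shift of 0.01 and 0.626% on base e. A2 had the highest share. On the other arrays it ran from 3.55% (B1, against 0.298% after the shift) to 9.95% (A1, against 0.354%). As deposited, arrays of opposite orientation correlated between -0.542 and -0.174 over probes, so A1, A2 and B1 were sign-turned. Arrays of the same orientation correlated between 0.451 and 0.519. B1 with A2 (0.519) and B2 with A3 (0.516), pairs of one dye orientation, were thus closer across preparations than B1 and B2 within one (-0.278 before turning). A2 and A3 (-0.379 before turning) were also less close than those pairs, whereas A1 and A3 (-0.542 before turning) were closer. This limits the means of both preparations.

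Probes of 1 symbol (11723; 806 had several, 7676 none) were averaged to genes, giving 18151 features; 11590 matched GRCm38.p6 by Entrez identifier, changing 0 symbols. Orientations were averaged within a preparation, then limma 3.58.1 (R 4.3.3) tested 2 preparation means against 0 over 4892 features with both orientations in both preparations. A second limma fit on 5 arrays had dye, cell line and preparation terms. P-values were adjusted by Benjamini-Hochberg over all features, with 10.2 and 13.5 prior degrees of freedom; they measure the spread between these samples, which may be technical. Both fits were checked on simulated data, for the mean size of planted effects only. The simulated noise was independent between arrays and had no part shared within a preparation, so it does not check the p-values for such a design. Precision is limited by the number of arrays.

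The genes and all lists were chosen with earlier results of these data known. Named from each list were up to 4 genes past the threshold by size or, with none, up to 2 with values on the most arrays; others are said to be named after their values were seen. Nearest profiles used the root mean square distance. Plots used matplotlib 3.10.9 (Python 3.11.15). Alternatives covered replication and dye terms, probe summary, centring, scaling, quantile normalization, missing values, variance estimate, threshold and each array left out.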

Additional observations from a re-analysis of the deposited data

Results flagged for a closer look

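Hsp90b1 had opposite signs in the 2 preparations, with -1.25 (A1), -1.13 (A2) and -1.16 (A3) in preparation A, against 0.56 (B1) and 0.39 (B2) in B. The difference, A minus B, was -1.65, and no test of it is given, because the gene was chosen with these values known. In 27 named genes no array stood apart from the others of its gene, where chance sets one apart in about 5%. These are not all of the genes named above. The arrays of a gene came from both preparations, and the 5% assumes that they vary around a common value. A gene that differs between preparations, such as Hsp90b1, does not meet this, and genes were chosen with their values known. The check therefore cannot decide whether an array stands apart, and nothing is read from it.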

How the results depend on the processing

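The total of 332 features called between the cell lines, of which 66.9% were lower, was 564 with only probes measured in both orientations of both preparations, 535 after centring (59.8% lower), 124 after scaling to equal spread, 193 after quantile normalization, 120 at an adjusted p under 0.01 and 548 under 0.1. Leaving out 1 array gave 198 to 498. The 7 lower calls among other genes of the compartment became 11, 3, 3 and 3 with the probe restriction, equal spread, quantile normalization and the stricter threshold, and 2 to 9 with 1 array left out; Rcn3, Serpinh1 and Ssr4 were called in all but the last, where Ssr4 was lost without B2. Higher calls there numbered 0 to 1, with Man2a1 called without A3, when 110 genes were tested. Between the preparations the single call became 3 with the median of probes, 4 at an adjusted p under 0.1, 3 with A1, A2 and B1 alone, and 1 to 25 with 1 array left out; 0 other genes of the compartment were called under any of these. With repetition numbers as a replicate block and no dye term 3 of 3960 features were called. The numbers count arrays and were not shown to pair them: deviations of same-numbered arrays correlated at 0.027 and -0.37, and with a dye term such a block would leave no residual degree of freedom. The 29 dye calls became 18, 7, 8 and 4 with the probe restriction, equal spread, quantile normalization and features on all 5 arrays, 6 and 57 at adjusted p under 0.01 and 0.1, and 0 to 256 with 1 array left out. The cause of these shifts was not tested, but left-out arrays and restrictions also change which features enter. The 10 genes' median in preparation A was -1.39 over the 6 genes with such probes and -1.71 over the 5 on all arrays. Of 220 values of single genes under alternatives, 209 moved by less than the spread of their arrays and 5 changed sign, all in B near 0 (Manf -0.07 without B1, Pdia4 0.10 and Ddit3 0.08 without B2 and with the Cy3 arrays alone). Centring moved no array by more than 0.035. Background intensities were not used here, so signal over background behind a ratio is unknown.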
